A study of Mus musculus with 22 samples.

Results

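The 9 genes described here were among those that rose most in immature B cells cultured with γδ T cells over the same cells cultured alone. They are Gadd45g, Ryr2, Pkib, Rab35, Sypl, St7, B3gnt7, Serpinb6b and Klhdc2. They were picked by symbol for that rise, with no numeric threshold, from 29294 genes listed in the 3 deposited tables, 25676 of them in the culture table. Their levels in culture are therefore a description with no test, and tests were run on the spleen libraries, which the choice did not use. All 9 genes were found in each table and passed the filter on low values (a table mean of at least 10). By the log2 difference between co-culture and alone they stood between place 3 and place 60 among the 12386 genes tested in culture.

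The series holds 22 RNA libraries in 7 groups, each from B220+CD93+ immature B cells of mouse spleen. Co-culture libraries (n = 3) came from Tcrd-H2BeGFP cells kept with γδ T cells, and alone libraries (n = 3) from Tcrd-H2BeGFP cells kept by themselves, with no toxin in either group. In spleen experiment 1, depleted libraries (n = 3) came from Tcrd-GDL mice given diphtheria toxin, and untreated libraries (n = 3) from Tcrd-GDL mice without it. Spleen experiment 2 held depleted Tcrd-GDL libraries (n = 2), toxin control libraries from Tcrd-H2BeGFP mice given the same toxin (n = 3) and untreated Tcrd-GDL libraries (n = 5). Toxin was injected into the peritoneum 2 times with 48 h between, each time at 15 ng for every gram of mouse, and cells were taken on day 8. Both alleles report on the T cell receptor δ locus; Tcrd-GDL also carries the toxin's receptor there, so that the toxin kills γδ T cells, while Tcrd-H2BeGFP carries only a nuclear fluorescent reporter. The toxin control therefore differs from untreated mice in strain and in toxin, which cannot be told apart, and from depleted mice in strain as well as in depletion. The labels used here give no age or sex and no length of culture, and do not say whether replicates were separate animals or cultures, so p-values measure the spread between libraries, which may be technical.

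Immature B cells leave the bone marrow and complete their maturation in the spleen, where signals through the B cell receptor and from neighbouring cells decide which of them survive. γδ T cells are a minority of splenic T cells that can supply such signals as cytokines and by contact. The 9 genes belong to no single pathway. Gadd45g, Ryr2 and Pkib act in stress kinase, calcium and cyclic AMP signalling. Rab35, Sypl, St7 and B3gnt7 encode proteins of the endosomes, vesicles, membranes and Golgi, and Serpinb6b and Klhdc2 act in protease inhibition and protein degradation.

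The 300-base windows around the annotated start sites (250 before to 50 after, RefSeq, GRCm38.p6) were read for all 9 genes, which had 13 such windows because St7, Pkib and Sypl start at several sites. The 5 windows shown hold the STAT6-type matches of St7 and Pkib and the E-boxes of B3gnt7 and Gadd45g, which ranked 3 and 5 in culture. Capitals mark the motif matches. They are St7 (chr6:17748920-17749219, plus strand), the 2 Pkib windows (chr10:57631731-57632030 and chr10:57645619-57645918, plus strand), B3gnt7 (chr1:86302971-86303270, plus strand) and Gadd45g (chr13:51846425-51846724, plus strand).
St7: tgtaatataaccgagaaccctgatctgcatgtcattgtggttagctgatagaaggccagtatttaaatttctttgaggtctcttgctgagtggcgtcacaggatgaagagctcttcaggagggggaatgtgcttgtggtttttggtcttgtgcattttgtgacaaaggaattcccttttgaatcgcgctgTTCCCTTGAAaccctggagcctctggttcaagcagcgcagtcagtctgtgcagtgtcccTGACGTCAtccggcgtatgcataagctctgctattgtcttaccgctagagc
Pkib, first window: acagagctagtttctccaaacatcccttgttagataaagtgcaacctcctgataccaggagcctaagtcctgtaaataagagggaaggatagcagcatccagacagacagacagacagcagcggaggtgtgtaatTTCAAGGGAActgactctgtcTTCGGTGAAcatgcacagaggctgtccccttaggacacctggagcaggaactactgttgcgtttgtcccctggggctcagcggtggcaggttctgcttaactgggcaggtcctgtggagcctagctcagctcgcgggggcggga
Pkib, second window: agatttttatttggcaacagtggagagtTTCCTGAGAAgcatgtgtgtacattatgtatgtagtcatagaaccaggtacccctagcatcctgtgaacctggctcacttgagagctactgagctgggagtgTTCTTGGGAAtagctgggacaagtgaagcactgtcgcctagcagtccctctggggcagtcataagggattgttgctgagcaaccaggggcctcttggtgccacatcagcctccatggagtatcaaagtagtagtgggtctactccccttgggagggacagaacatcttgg
B3gnt7: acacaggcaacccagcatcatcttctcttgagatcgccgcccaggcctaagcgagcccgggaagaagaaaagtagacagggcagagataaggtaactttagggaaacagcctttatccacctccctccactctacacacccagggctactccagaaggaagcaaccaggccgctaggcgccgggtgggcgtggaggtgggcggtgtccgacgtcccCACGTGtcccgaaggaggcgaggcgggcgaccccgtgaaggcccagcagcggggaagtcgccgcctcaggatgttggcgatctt
Gadd45g: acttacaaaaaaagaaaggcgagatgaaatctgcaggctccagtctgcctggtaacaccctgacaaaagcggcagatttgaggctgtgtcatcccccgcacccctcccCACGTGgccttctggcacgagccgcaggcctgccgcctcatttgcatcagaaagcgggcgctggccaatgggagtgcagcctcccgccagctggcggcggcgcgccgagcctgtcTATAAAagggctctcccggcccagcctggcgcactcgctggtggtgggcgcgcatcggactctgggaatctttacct

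Motifs were searched on both strands by their letters. Positions give the first base, with the start site as 1 and the base before it as -1. The STAT6-type motif, TTCNNNNGAA, is the spacing that the interleukin 4 responsive factor STAT6 is known to prefer. It occurred in 3 windows of 2 members, at position -60 in St7, at -115 in the first Pkib window, and at -222 and -120 in the second. It is present in 6.95% of all 32851 windows. The shorter STAT-type spacing, TTCNNNGAA, was at -94 in the first Pkib window and is in 8.30% of all windows. The E-box CACGTG was at -34 in B3gnt7, at -142 in Gadd45g and at 25 in another St7 window, against 7.15% of all windows. The cyclic AMP response element TGACGTCA overlapped the start of the St7 window shown, at -1, and is in 1.79% of all windows. Gadd45g also held TATAAA at -27, and a second St7 window held it at -10; 13.6% of all windows hold it. The AP-1 motif TGANTCA was in 1 window, of Sypl, at -175, against 7.81% of all windows. The member windows had a median of 61.3% G and C and 19 CpG, against 52.7% and 7 in all windows. All windows include those of genes too low to test in these cells, while all 9 members passed the filter. No comparison with the windows of tested genes alone was made, so none of these shares is read as a trait of the members. These matches describe letters, not binding.

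Library depth was 17505909 to 28729574 reads in culture, 9794413 to 20343954 in experiment 1 and 22022330 to 36840455 in experiment 2, as whole reads recovered from the deposited values. Levels below are the authors' normalized read counts, comparable within a table only. All 11 B cell identity genes (Ptprc, Cd93, Cd79a and others) were tested in each table. In culture their summed level was 104630 to 109346 in co-culture and 106812 to 128062 in alone libraries, and 1 of the 11 passed there. Cd24a, a surface protein of immature B cells, fell to 5488 ± 1164 in co-culture, against 9387 ± 854 alone (SD, n = 3 each, log2 -0.79, limma adjusted p = 0.0233). That call was lost without any 1 alone replicate (adjusted p up to 0.130). One culture library lay slightly apart, co-culture replicate 3, with a mean rank correlation of 0.980 to its group against 0.986 for the other co-culture libraries. In experiment 1, depleted replicate 1 had the lowest value (0.971) and the largest share of reads on the noncoding gene Gm23935 (28.7%, against 16.1% to 20.4% in the other libraries).

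Gadd45g, ENSMUSG00000021453 (GRCm38 chr13:51846678-51848468, plus strand), encodes a small stress-induced protein that activates the kinase Map3k4 upstream of p38 and JNK and can halt the cell cycle. Its level was 495, 486 and 561 in co-culture replicates 1 to 3, against 51.4, 41.0 and 82.2 in alone replicates 1 to 3. The lowest co-culture library lay far above the highest alone library. The means were 514 ± 40.7 in co-culture and 58.2 ± 21.4 alone (SD, n = 3 each), a ratio of 8.83 and a log2 difference of 3.18 on log2(value + 1). Per kilobase of exon, Gadd45g stood at the 91.1 percentile of tested genes in co-culture and the 40.0 percentile alone.

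Ryr2, ENSMUSG00000021313 (chr13:11553102-12106945, minus strand), encodes the calcium release channel best known from the sarcoplasmic reticulum of heart muscle. It had the largest coefficient of variation of the 9 genes among the co-culture libraries, 45.1%, though not among the alone libraries. It was at 262, 118 and 325 in co-culture replicates 1 to 3 and 40.2, 37.7 and 26.2 in alone replicates 1 to 3. Co-culture replicate 2 was low but still above each alone library. The mean was 235 ± 106 in co-culture and 34.7 ± 7.48 alone (SD, n = 3 each), a ratio of 6.78 and a log2 difference of 2.63. Ryr2 spans 553.8 kb with 28790 exon bases, and per kilobase it stayed low, at the 10.1 percentile of tested genes in co-culture and the 0.3 percentile alone.

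Pkib, ENSMUSG00000019876 (chr10:57631981-57741112, plus strand), encodes a small inhibitor that blocks the catalytic subunit of protein kinase A. Its level was 1905, 1929 and 1830 in co-culture, against 643, 619 and 583 alone. All 3 co-culture libraries were close together, at 1888 ± 51.6, against 615 ± 30.3 alone (SD, n = 3 each). The ratio was 3.07 and the log2 difference 1.62. Its level per kilobase stood at the 72.8 percentile in co-culture and at the 41.3 percentile alone.

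Rab35, ENSMUSG00000029518 (chr5:115631908-115647736, plus strand), encodes a GTPase that returns receptors from endosomes to the cell surface. Its co-culture libraries were the tightest of the set, at 1842, 1808 and 1840, against 733, 593 and 615 alone. The means were 1830 ± 19.0 in co-culture and 647 ± 75.2 alone (SD, n = 3 each), a ratio of 2.83 and a log2 difference of 1.5. Sypl, ENSMUSG00000020570 (chr12:32953891-32979860, plus strand), encodes a vesicle membrane protein related to synaptophysin and found outside neurons. It was at 2834, 2886 and 2614 in co-culture and 1049, 1153 and 1041 alone, with means of 2778 ± 144 in co-culture and 1081 ± 62.4 alone (SD, n = 3 each). Sypl had the smallest rise of the 9, a ratio of 2.57 and a log2 difference of 1.36. Per kilobase, Rab35 stood at the 94.3 percentile in co-culture and the 81.4 percentile alone, and Sypl at the 87.7 percentile in co-culture and the 67.3 percentile alone.

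St7, ENSMUSG00000029534 (chr6:17692933-17943025, plus strand), encodes a membrane protein whose human gene was first studied as a possible tumour suppressor and whose function is not settled. Its level was 848, 846 and 1004 in co-culture replicates 1 to 3, against 94.4, 106 and 83.4 alone. Each co-culture library was several times above each alone library, and the means were 899 ± 90.5 in co-culture and 94.7 ± 11.4 alone (SD, n = 3 each). The ratio was 9.49 and the log2 difference 3.24. B3gnt7, ENSMUSG00000079445 (chr1:86302832-86307305, plus strand), encodes a Golgi enzyme that adds N-acetylglucosamine to the growing sugar chains of polylactosamine and keratan sulfate. It had the largest rise of the 9, at 279, 272 and 323 in co-culture and 32.7, 22.6 and 23.7 alone. The means were 291 ± 27.7 in co-culture and 26.3 ± 5.56 alone (SD, n = 3 each), a ratio of 11.1 and a log2 difference of 3.43. Alone, B3gnt7 rested on a mean of 27 reads, with a counting error of 19.2%. Per kilobase, St7 was at the 59.5 percentile in co-culture and the 12.3 percentile alone, and B3gnt7 at the 49.2 percentile in co-culture and the 7.4 percentile alone.

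Serpinb6b, ENSMUSG00000042842 (chr13:32965209-32979067, plus strand), encodes a mouse intracellular serpin, an inhibitor of serine proteases inside the cell. It was at 314, 200 and 200 in co-culture and 34.6, 35.2 and 51.1 alone, so that co-culture replicate 1 was high and the other two nearly equal. The means were 238 ± 65.9 in co-culture and 40.3 ± 9.35 alone (SD, n = 3 each), a ratio of 5.91 and a log2 difference of 2.52. Serpinb6b has close relatives in a serpin cluster, and how reads shared between them were counted is not given in the sources used here. Klhdc2, ENSMUSG00000020978 (chr12:69296681-69310687, plus strand), encodes a receptor, known from human cells, that brings proteins with particular C-terminal ends to a cullin 2 ubiquitin ligase. Its level was 2007, 2327 and 1847 in co-culture, against 648, 611 and 688 alone. The means were 2060 ± 244 in co-culture and 649 ± 38.2 alone (SD, n = 3 each), a ratio of 3.18 and a log2 difference of 1.66. Per kilobase, Serpinb6b was at the 61.0 percentile in co-culture and the 19.0 percentile alone, and Klhdc2 at the 89.5 percentile in co-culture and the 64.9 percentile alone.

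**Figure D1:**
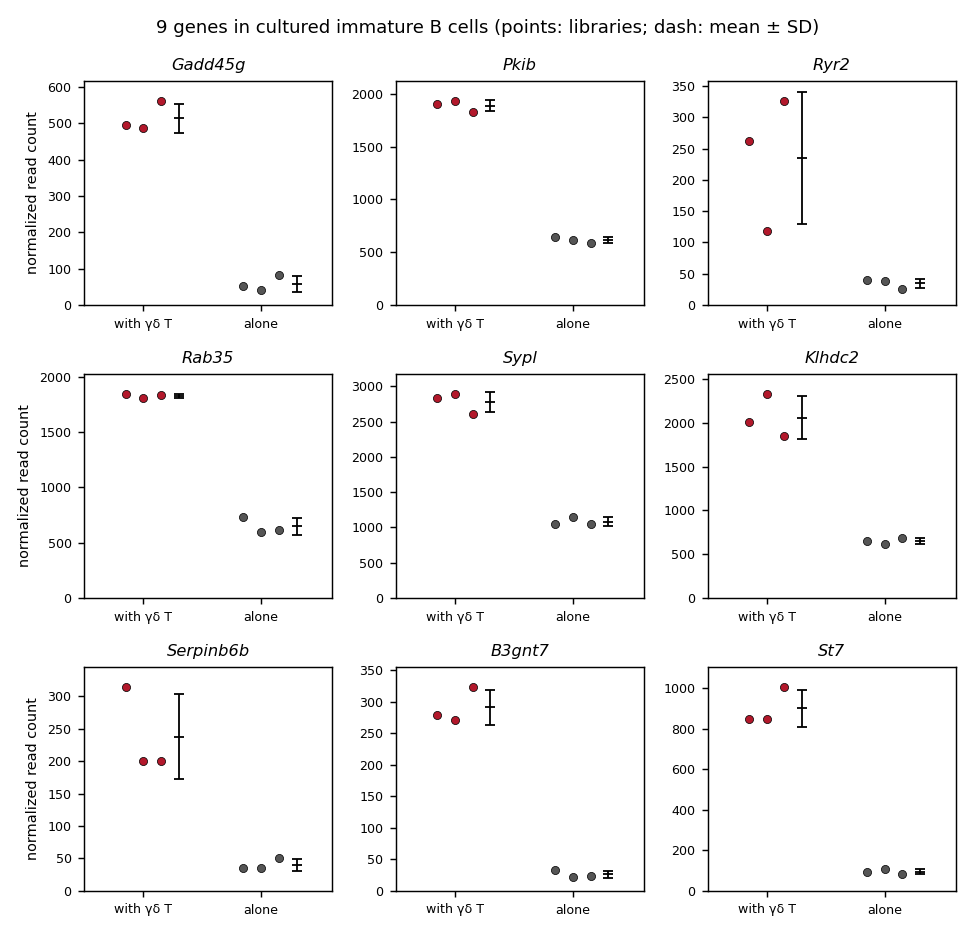
Normalized read count (y axis, from 0) of each of the 9 genes in the 3 co-culture libraries (with γδ T, red) and the 3 alone libraries (grey), with the mean and SD as a dash and bar. In every panel the co-culture points lie above the alone points, and Ryr2 spreads most in co-culture, between 118 and 325.

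The 9 genes fell into a group of 5 with a large rise from a low level (B3gnt7, St7, Gadd45g, Ryr2 and Serpinb6b, ratios 5.91 to 11.1) and 4 with a smaller rise from a higher level (Klhdc2, Pkib, Rab35 and Sypl, ratios 2.57 to 3.18). In all 9 the co-culture and alone libraries did not overlap, as was so for 18.4% of the 12386 genes tested in either direction. With limma, 267 of those genes (2.16%) passed a Benjamini-Hochberg adjusted p under 0.05, 136 higher and 131 lower in co-culture. Nothing is read from the members' own place in these shares, because this contrast chose them. The order of the co-culture libraries differed between genes: replicate 1 was highest for 2 members, replicate 2 for 3 and replicate 3 for 4, while replicate 2 was lowest for 6 and replicate 3 for 3. Under 108 alternative settings of their log2 differences (pseudocount, filter, scaling, count models, a replicate block and each library left out), all 9 kept their sign. This gives no support for the rise, because the contrast chose the genes and their groups did not overlap.

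In bulk RNA, more cells of a type and more RNA per cell cannot be told apart, and γδ T cells were present in the co-cultures. Of 12 γδ T cell marker genes, 11 were listed in the culture table. In all 3 co-culture libraries Il17a, Tcrg-C1, Tcrg-C4, Trdv4 and Cd163l1 were at 0. The summed level of the list was 2982 to 3206 in co-culture and 3551 to 4073 alone, most of it Blk, a kinase that B cells also express. The tested common T cell genes had a median log2 difference of -0.12, and single genes differed. Cd3e was at 57.4, 44.4 and 50.9 in co-culture, against 51.4, 41.9 and 46.1 alone, with the groups overlapping. Bcl11b was at 15.6, 27.4 and 52.6 in co-culture, against 12.2, 6.70 and 16.2 alone, also with overlap. The 15 common T cell genes summed to 1890 to 2178 in co-culture and 2345 to 2485 alone. Most of each sum was Cd2, at 1099, 1341 and 998 in co-culture replicates 1 to 3 and 1665, 1646 and 1597 alone. The sum therefore follows Cd2 and does not give the direction of the rest of the 15 genes. Among 12 of them tested, Lck rose (513 ± 91.3 in co-culture, 311 ± 26.3 alone, log2 0.71, limma adjusted p = 0.0297) and Cd5 fell (33.7 ± 2.64 in co-culture, 66.3 ± 4.47 alone, log2 -0.95, adjusted p = 0.0386; SD, n = 3 each). Both calls held only without co-culture replicate 3, of the 6 libraries left out in turn (adjusted p up to 0.202), and that of Cd5 was also lost without the filter (adjusted p = 0.102) and with edgeR (adjusted p = 0.0527). The αβ T cell list summed to 404 to 600 in co-culture and 282 to 362 alone, with no overlap. Its 7 tested genes had a median log2 difference of 0.55, and 0 passed. Most of each sum was Cd28, at 446, 303 and 265 in co-culture and 229, 188 and 189 alone. The NK and cytotoxic list summed to 56.1 to 98.2 in co-culture and 84.6 to 139 alone, with 0 of 4 passing. None of the tested macrophage, dendritic cell or neutrophil markers passed (0 of 4, 0 of 4 and 0 of 2).

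The closest relatives of the members were compared between co-culture and alone in the same table. Of the GADD45 family, Gadd45a was at 295 ± 22.7 in co-culture and 362 ± 40.1 alone (log2 -0.29, limma adjusted p = 0.408), and Gadd45b fell, at 276 ± 10.8 in co-culture against 413 ± 45.8 alone (log2 -0.58, adjusted p = 0.0404). Of the ryanodine receptors, the skeletal muscle form Ryr1 was at 60.2 ± 9.51 in co-culture and 33.5 ± 6.70 alone (log2 0.83, adjusted p = 0.117), and Ryr3 was too low to test. Pkig, another kinase A inhibitor, was at 2443 ± 122 in co-culture and 2768 ± 376 alone (log2 -0.17, adjusted p = 0.660), and Pkia was at 0. Serpinb6a, a relative of Serpinb6b, was at 231 ± 35.2 in co-culture and 219 ± 19.0 alone (log2 0.07, adjusted p = 0.900). Klhdc1, the relative next to Klhdc2, was at 142 ± 15.2 in co-culture and 108 ± 5.77 alone (log2 0.39, adjusted p = 0.316). All SDs are over n = 3 libraries a group, and no difference between a member and its relative was tested.

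Across 9 lists of pathway partners (90 genes tested of 123), 3 genes rose and 7 fell, 11.1% of those tested against 2.16% of all genes, and the median log2 difference was -0.05 against -0.005 over all genes tested. The lists were chosen with earlier results of these data known, so these shares are a description and no test of the pathways. The stress kinase list (Gadd45 relatives, p38, JNK and their activators) had 0 higher and 1 lower of 14, and its median was -0.14. The calcium release and refilling list, with the inositol trisphosphate receptors, Stim and Orai proteins and calcium pumps, had 0 of 16 called. The kinase A list had 0 higher and 1 lower of 15, the phosphodiesterase Pde4b (1286 ± 127 in co-culture, 1819 ± 47.6 alone, log2 -0.51, limma adjusted p = 0.0448). Of the clade B serpins 3 were tested: Serpinb9, an inhibitor of granzyme B, rose to 138 ± 28.1 in co-culture, against 57.4 ± 9.998 alone (log2 1.25, adjusted p = 0.00776), and Serpinb1a, an inhibitor of neutrophil-type proteases, fell to 1127 ± 207 in co-culture, against 1862 ± 141 alone (log2 -0.74, adjusted p = 0.0180).

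In the list of polylactosamine and keratan sulfate enzymes, 0 rose and 2 of 8 fell. They were B3gnt8, a related N-acetylglucosamine transferase (294 ± 31.3 in co-culture, 492 ± 43.7 alone, log2 -0.74, limma adjusted p = 0.0127), and the branching enzyme Gcnt1 (416 ± 22.5 in co-culture, 633 ± 71.9 alone, log2 -0.60, adjusted p = 0.0309). Of 16 Rab35 regulators and effectors 0 rose and 2 fell, Dennd3 (log2 -0.51, adjusted p = 0.0400) and Dennd6a (log2 -0.47, adjusted p = 0.0440), both of the DENN family of guanine nucleotide exchange factors and best known for acting on Rab proteins other than Rab35. Syngr2, a synaptogyrin and vesicle protein like Sypl, was the 1 tested gene of its list and rose to 1501 ± 119 in co-culture, against 719 ± 11.6 alone (log2 1.06, adjusted p = 0.000241). The cullin 2 list had 0 of 13 called. The calls of Syngr2 and Serpinb9 held without any 1 of the 6 libraries. Those of Gadd45b, Pde4b, Dennd3 and Dennd6a held only without co-culture replicate 3, of the 6 libraries left out in turn, with adjusted p up to 0.263. B3gnt8 lost its call without alone replicate 1 or 2, Serpinb1a without any 1 alone replicate or co-culture replicate 2, and Gcnt1 without alone replicate 1 or 2 or co-culture replicate 1 or 2, with adjusted p of 0.0571 to 0.214 for these 3.

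The surroundings of the 9 genes were read from GENCODE M21 (GRCm38). Within 50 kb lay 50 annotated genes, 20 of them overlapping a member, of which 28 were listed and 12 tested in culture. Of these 12, 2 rose and 0 fell, and their median log2 difference was 0.46. Gm16341 is annotated as an antisense gene on the opposite strand. Its start lies 1.46 kb before that of B3gnt7, and the genes run away from each other. It was at 79.7, 74.0 and 170 in co-culture replicates 1 to 3, against 19.6, 17.6 and 36.1 alone, with no overlap. The log2 difference was 2.06 (SE 0.35, limma adjusted p = 0.00815), and it was lost without alone replicate 2 (adjusted p = 0.0620). Serpinb9, above, lies 24.2 kb from Serpinb6b.

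Other near transcripts had values in the same direction that did not pass. Gm27960, a small RNA gene inside St7, was at 19.3 ± 9.32 in co-culture and 3.67 ± 1.97 alone (log2 2.10, limma adjusted p = 0.0935). The noncoding 4933406C10Rik, 0.102 kb from Sypl on the opposite strand, was at 16.9 ± 5.60 in co-culture and 5.28 ± 1.34 alone (log2 1.49, adjusted p = 0.167). Bicdl1, 0.439 kb from Rab35 on the opposite strand, was at 59.1 ± 11.6 in co-culture and 31.1 ± 12.4 alone (log2 0.96, adjusted p = 0.160; SD, n = 3 each). Nemf, which overlaps the end of Klhdc2 on the opposite strand, was at 794 ± 135 in co-culture and 793 ± 93.2 alone (log2 -0.005, adjusted p = 0.995). The kit keeps strand, but whether the counting used it is not given, so reads of a member and of an overlapping or antisense gene cannot be told apart. Gm27960 lies on the same strand as St7, so strand would not separate their reads in any case.

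**Figure D2:**
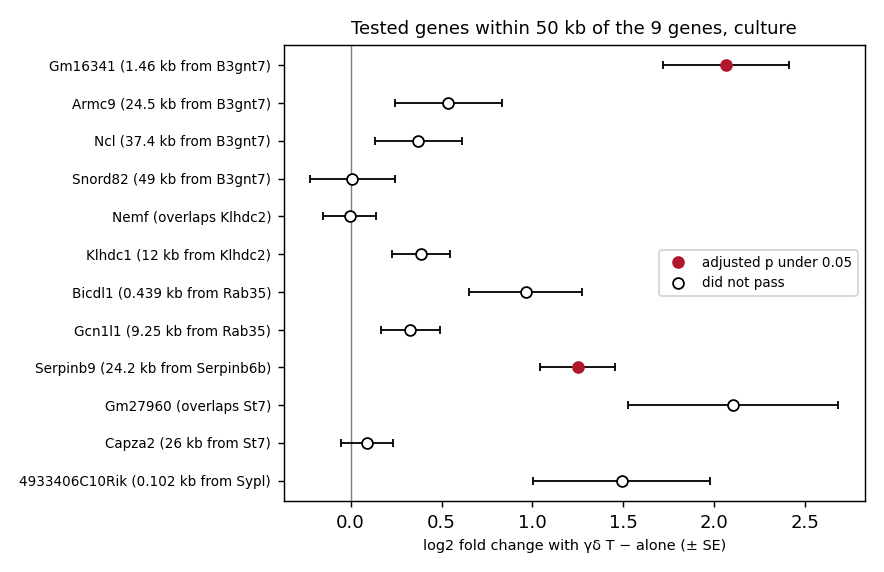
Log2 difference of co-culture minus alone (x axis, bars are ± SE) for the 12 tested genes within 50 kb of a member, listed with their distance to it in kb. Filled points are the 2 genes that passed, Gm16341 at 2.06 and Serpinb9 at 1.25; Nemf lies at the line of no difference.

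The spleen experiments put the same genes in cells taken from mice with γδ T cells removed. In experiment 1, with depleted against untreated mice, 0 of 9 members passed limma's adjusted p under 0.05, as did 0 of the 11701 genes tested (0%). At an unadjusted p under 0.05 there were 1033 genes, 1 of them a member. edgeR's quasi-likelihood test on recovered reads called 0 genes and DESeq2 called 31, neither with a member among them. Between the 2 groups 4 members had a positive log2 difference and 5 a negative one, with a median of -0.05 against -0.01 over all genes tested.

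B3gnt7 had the largest difference in experiment 1. It was at 22.9, 11.6 and 25.3 in depleted replicates 1 to 3, against 48.9, 46.0 and 32.2 in untreated replicates 1 to 3, with no overlap. The means were 19.9 ± 7.33 in depleted and 42.4 ± 8.92 in untreated libraries (SD, n = 3 each), a log2 difference of -1.10 with a 95% interval of -1.87 to -0.33 (limma adjusted p = 0.502). Ryr2 was at 26.0, 41.1 and 44.7 in depleted libraries, against 55.5, 54.5 and 49.2 in untreated ones, a log2 difference of -0.53 with an interval of -1.10 to 0.04. Rab35 was at 460, 413 and 421 in depleted libraries, against 506, 482 and 473 in untreated ones, a difference of -0.18 with an interval of -0.40 to 0.05. These 3 members had every depleted library below every untreated one, and no member had the reverse. Over all genes tested 15.2% did not overlap in one direction or the other.

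The remaining 6 overlapped between the groups of experiment 1. Sypl was at 606, 955 and 812 in depleted libraries, against 623, 624 and 712 in untreated ones (log2 0.25, 95% interval -0.09 to 0.60). St7 was at 87.2, 60.0 and 73.3 in depleted libraries, against 58.4, 52.1 and 66.1 in untreated ones (log2 0.31, interval -0.16 to 0.77). Depleted replicate 1 held the highest value for St7 and the lowest for Sypl. Pkib was at 771, 515 and 531 in depleted libraries, against 498, 478 and 549 in untreated ones (log2 0.23, interval -0.12 to 0.57), again with replicate 1 apart. Klhdc2 averaged 312 ± 23.9 in depleted and 279 ± 24.0 in untreated libraries (log2 0.16). Gadd45g averaged 58.7 ± 15.0 in depleted and 59.8 ± 7.00 in untreated libraries (log2 -0.05), and Serpinb6b 54.8 ± 21.4 in depleted and 57.7 ± 2.85 in untreated libraries (log2 -0.14; SD, n = 3 each).

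Depleted replicate 1 carried much of the spread. Without it, limma called 1097 of the 11701 genes tested, and 2 of the 9 members. Sypl was higher in the depleted libraries (log2 0.43, limma adjusted p = 0.0113) and B3gnt7 lower (log2 -1.23, adjusted p = 0.0336). That fit leaves 2 depleted libraries. In the full fit the common T cell markers summed to 1965 to 2505 in depleted and 2551 to 2734 in untreated libraries, and none of the 9 tested passed; their part in these values was not tested.

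**Figure D3:**
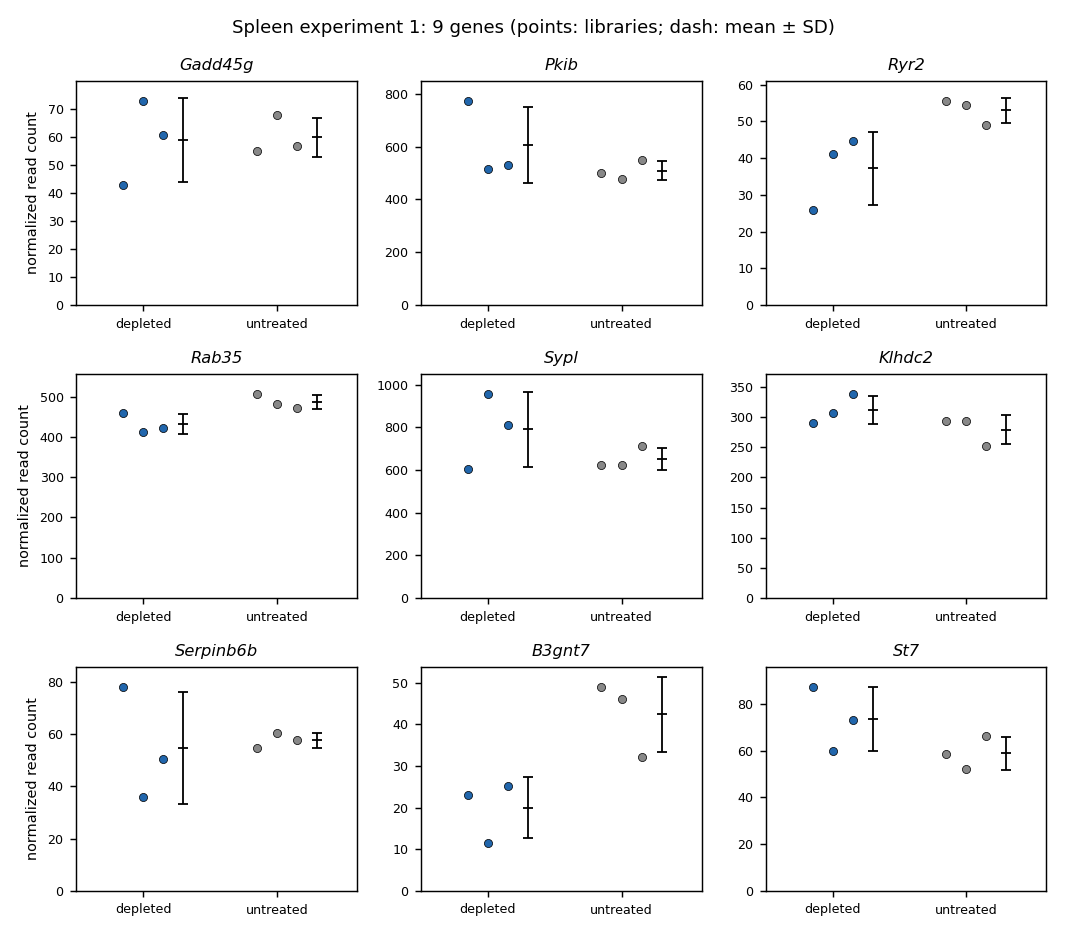
Normalized read count (y axis, from 0) of the 9 genes in spleen experiment 1, 3 depleted libraries (blue) left of 3 untreated libraries (grey), with mean and SD. B3gnt7, Ryr2 and Rab35 are lower in every depleted library, and the other genes overlap.

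In experiment 2, 0 of 9 members passed between depleted and untreated mice, where limma called 40 of 13364 genes (0.299%, 17 higher and 23 lower) and 1309 genes had an unadjusted p under 0.05, 2 of them members. edgeR and DESeq2 on recovered reads called 56 and 137 genes and no member. Those 2 members were Gadd45g and Sypl. Gadd45g was at 220 and 127 in depleted replicates 4 and 5, and in untreated replicates 4 to 8 the values were 91.2, 129, 107, 82.8 and 72.3. Depleted replicate 4 lay above all untreated libraries and replicate 5 within them. The log2 difference was 0.82 with a 95% interval of 0.22 to 1.41 (limma adjusted p = 0.292). Sypl averaged 2156 ± 304 in depleted (SD, n = 2) and 1748 ± 172 in untreated libraries (SD, n = 5), and untreated replicate 7 lay between the 2 depleted libraries. Its log2 difference was 0.30 with a 95% interval of 0.07 to 0.53 (limma adjusted p = 0.322).

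Ryr2 was the 1 member whose depleted libraries did not overlap the untreated ones in experiment 2, as was so for 12.3% of genes. It was at 74.6 and 86.3 in depleted replicates 4 and 5, against 92.9, 92.7, 89.8, 127 and 137 in untreated replicates 4 to 8 (log2 -0.40, 95% interval -0.96 to 0.16, adjusted p = 0.665). B3gnt7 was at 18.6 and 50.1 in depleted libraries, against 30.7, 46.9, 48.6, 34.7 and 59.4 in untreated ones, and the depleted libraries lay on either side (log2 -0.47, interval -1.31 to 0.37). St7 was at 162 and 173 in depleted libraries, against 123, 124, 183, 114 and 115 in untreated ones (log2 0.37, interval -0.07 to 0.80). Only untreated replicate 6 of the 5 lay above the depleted libraries for St7. The other 4, Pkib, Rab35, Klhdc2 and Serpinb6b, had log2 differences of -0.09 to 0.18 and overlapped. Of the 9 members 5 had the same sign of depleted minus untreated in experiments 1 and 2 (55.6%), against 63.7% of the 11687 genes tested in both.

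The toxin control shares libraries with both other comparisons of experiment 2. Between depleted and toxin control mice, 1 of 9 members passed, a share close to the 9.07% of all 13364 genes that passed (612 higher and 600 lower). The member was Sypl. It was at 2370 and 1941 in depleted replicates 4 and 5, against 1447, 1419 and 1501 in toxin control replicates 1 to 3, and untreated replicates 4 to 8 were at 1544, 1715, 1725, 2022 and 1736. Both depleted libraries lay above all toxin control libraries, and untreated replicate 7 lay between the 2 depleted ones. The means were 2156 ± 304 in depleted (SD, n = 2) and 1456 ± 41.6 in toxin control libraries (SD, n = 3), a log2 difference of 0.56 with SE 0.12 (limma adjusted p = 0.0125). The call was lost without depleted replicate 4 (log2 0.41, adjusted p = 0.308) and without toxin control replicate 2 (log2 0.54, adjusted p = 0.0511). The depleted and toxin control mice also differ in strain, so depletion and strain cannot be told apart here, and between depleted and untreated mice of the same strain Sypl did not pass in either experiment.

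Klhdc2 and St7 also had both depleted libraries above all 3 toxin control libraries, as 42.1% of genes did in one direction or the other. Klhdc2 was at 981 and 688 in depleted libraries, against 631, 675 and 645 in toxin control ones (log2 0.34, 95% interval 0.02 to 0.66, adjusted p = 0.166). Without depleted replicate 5 its log2 difference was 0.59, in a fit that leaves 1 depleted library taken to vary like the other groups. St7 was at 162 and 173 in depleted libraries, against 135, 132 and 149 in toxin control ones (log2 0.27, interval -0.20 to 0.74, adjusted p = 0.462).

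The other 6 members overlapped between these groups. Gadd45g was at 220 and 127 in depleted libraries, against 158, 91.1 and 95.8 in toxin control ones (log2 0.58, 95% interval -0.07 to 1.23). Pkib was at 1901 and 2177 in depleted libraries, against 2129, 2131 and 2510 in toxin control ones (log2 -0.14). Rab35 was at 787 and 925 in depleted libraries, against 944, 841 and 922 in toxin control ones (log2 -0.08). For these 3 the depleted libraries lay on both sides of at least 1 toxin control value. Serpinb6b was at 108 and 104 in depleted libraries, against 82.8, 88.1 and 108 in toxin control ones (log2 0.20). Ryr2 was at 74.6 and 86.3 in depleted libraries, against 57.1, 105 and 86.0 in toxin control ones (log2 -0.002), and B3gnt7 at 18.6 and 50.1 in depleted libraries, against 43.1, 29.7 and 54.3 in toxin control ones (log2 -0.41).

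Between toxin control and untreated mice 0 of 9 members passed, where limma called 2089 genes (15.6%, 976 higher and 1113 lower) and 4252 had an unadjusted p under 0.05, 1 of them a member. edgeR and DESeq2 called 2110 and 2615 genes, with no member. That member was Sypl, lower in every toxin control library (1419 to 1501) than in every untreated one (1544 to 2022), as the 1 member without overlap against 23.4% of genes. Its log2 difference was -0.26 with a 95% interval of -0.46 to -0.06 (adjusted p = 0.0724; 0.0454 with only these 2 groups fitted). The other 8 had log2 differences between -0.40 for Ryr2 and 0.23 for Gadd45g, each with an interval that included 0.

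Markers of other cells moved with the toxin control group. Among 14 tested common T cell genes, 4 were lower in depleted than in toxin control mice, with a median log2 difference of -1.46 over the 14, and 8 were higher in toxin control than in untreated mice, with a median of 1.29. The list summed to 5966 to 6277 in depleted, 7021 to 7759 in toxin control and 5915 to 6870 in untreated libraries. The αβ T cell list summed to 261 to 355 in depleted, 461 to 972 in toxin control and 176 to 729 in untreated libraries. Of 11 B cell identity genes, 4 were lower in depleted than in toxin control mice, led by Cd93 (log2 -0.86, limma adjusted p = 0.00597), the marker of the sort, whose call was lost without depleted replicate 4 (adjusted p = 0.146). Cd93 was at 1141 ± 65.7 in depleted, 2082 ± 286 in toxin control and 1189 ± 192 in untreated libraries (SD, n = 2, 3 and 5). Of the 11 genes, 3 were higher in toxin control than in untreated mice, Cd93 (log2 0.81, limma adjusted p = 0.00232), Ebf1 and Ptprc. Between depleted and untreated mice 0 of the 11 were called. The part of these marker genes in the Sypl result was not tested.

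Pathway partners gave no calls in the spleen between depleted and untreated mice in either experiment (0 of 88 in experiment 1 and 0 of 93 in experiment 2). Between depleted and toxin control mice 10 of 93 were called (10.75%), close to the 9.07% of all genes, and between toxin control and untreated mice 16 of 93 (17.2%), close to the 15.6% of all genes. Relatives of members were among those called between depleted and toxin control mice. St7l, the St7 homologue, was at 694 ± 101 (SD, n = 2) in depleted and 414 ± 47.4 (SD, n = 3) in toxin control libraries (log2 0.74, limma adjusted p = 0.00871), and was lost without depleted replicate 4 (adjusted p = 0.239). Ryr1 was at 347 ± 92.0 in depleted and 181 ± 15.3 in toxin control libraries (log2 0.92, adjusted p = 0.0250), and was lost without depleted replicate 4 or toxin control replicate 2 or 3 (adjusted p up to 0.408). Serpinb1a was at 7674 ± 856 in depleted and 5532 ± 214 in toxin control libraries (log2 0.47, adjusted p = 0.0258), and was lost without depleted replicate 4 or toxin control replicate 2 or 3 (adjusted p up to 0.371). The calcium list had 1 higher and 3 lower of 17 in that comparison, and the kinase A list 0 higher and 2 lower of 15.

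As given above, 17.2% of the partners and 15.6% of all genes were called between toxin control and untreated mice. In that comparison the calcium list had 4 higher and 1 lower of 17, led by the inositol trisphosphate receptor Itpr2 (5320 ± 917 in toxin control, 3347 ± 420 in untreated libraries, log2 0.66, limma adjusted p = 0.00406). The kinase A list had 3 higher and 0 lower of 15, led by the anchoring protein Akap9 (2308 ± 297 in toxin control, 1517 ± 85.5 in untreated libraries, log2 0.60, adjusted p = 0.00256). The stress kinase list had 2 higher and 2 lower of 14, with the JNK gene Mapk8 lower (392 ± 114 in toxin control, 621 ± 68.4 in untreated libraries, log2 -0.69, adjusted p = 0.00792). In the cullin 2 list Rbx1, the RING subunit of the ligase, was lower (776 ± 64.5 in toxin control, 1076 ± 87.2 in untreated libraries, log2 -0.47, adjusted p = 0.00646; SD, n = 3 and n = 5). These 4 calls held without any 1 library.

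**Figure D4:**
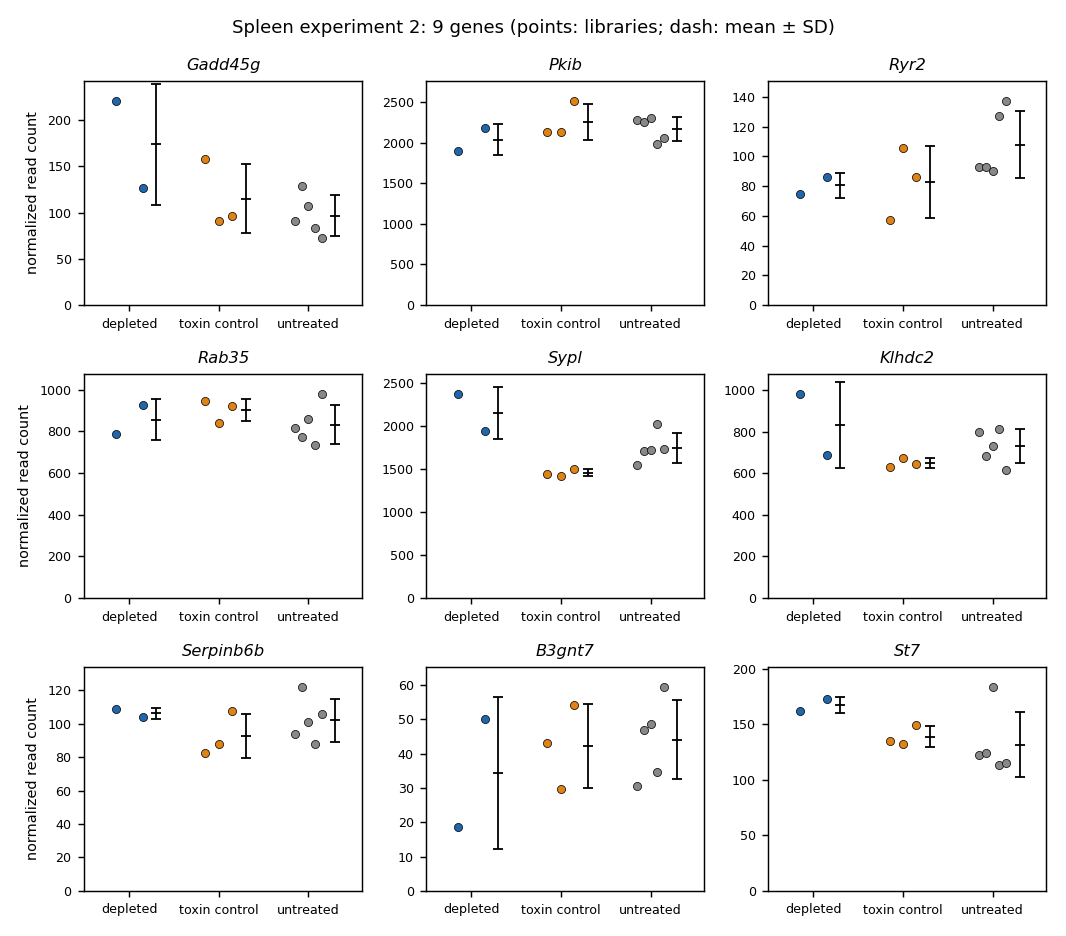
Normalized read count (y axis, from 0) of the 9 genes in spleen experiment 2, with 2 depleted (blue), 3 toxin control (orange) and 5 untreated (grey) libraries from left to right, with mean and SD. Sypl is the clearest difference, its 2 depleted libraries at 1941 and 2370 above the toxin control libraries at 1419 to 1501.

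**Figure D5:**
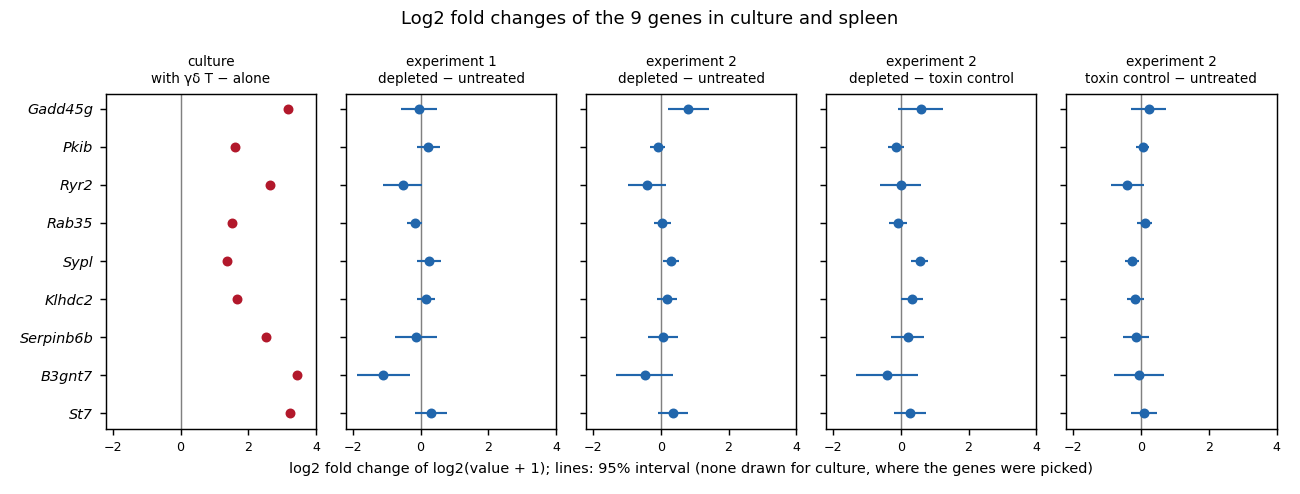
Log2 differences (x axis) of the 9 genes in the 5 comparisons, first-named minus second-named group as written above each panel, with 95% intervals in the 4 spleen comparisons. The culture points, the contrast that chose the genes, lie between 1.36 and 3.43. The spleen points lie between -1.10 and 0.82 and most intervals cross 0.

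Levels per kilobase placed Rab35 first and Ryr2 last among the 9 in the spleen, as in cells cultured alone. In untreated libraries of experiment 2, Rab35 stood at the 78.4 percentile of tested genes, Sypl at 70.0, Pkib at 66.6, Klhdc2 at 57.4, Gadd45g at 44.5, Serpinb6b at 30.8, St7 at 15.0, B3gnt7 at 11.97 and Ryr2 at 4.0.

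Over the 10 libraries of experiment 2, the genes whose log2 levels were most like each member's were named by Pearson's r among 13364 genes, as a description in which all pairs share libraries and depth. Sypl was most like the small nucleolar RNA Snord17 (r = 0.97) and St7l (r = 0.96), and Klhdc2 most like Mtg1 (0.97) and Alkbh6 (0.96). Rab35 was most like Hnrnph2 (0.96) and Prpf18 (0.93), and Gadd45g most like Msh5 (0.94) and Dusp22 (0.90). For B3gnt7 they were RP23-358I10.3 (0.93) and Rasgef1a (0.92), and for St7 Btbd19 (0.92) and Nap1l4 (0.88). For Serpinb6b they were Mir26b (0.91) and 9930022D16Rik (0.88), for Pkib Ttc1 (0.89) and Rcan1 (0.89), and for Ryr2 Fam120c (0.88) and Sco2 (0.88). No member was among the 2 genes most like another member.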

How the data were processed

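Per the labels' protocols, RNA came from RNeasy Plus Micro columns and stranded libraries of total RNA from Takara's SMART Seq kit. Alignment used STAR 2.5.2b to mm10 after bcl2fastq, per the submitters' processing notes. Not given in the sources used here are the counter, its use of strand and the annotation. Each of the 3 deposited tables lists genes by normalized count, which is a signal: reads divided by a factor for each library by the authors. Values were whole multiples of 1 read in 100% of cases within a tolerance of 0.01, which gave whole reads for depth and count models. No pair of the 26 replicate pairs agreed within sampling noise (lowest chi-square per degree of freedom 5.13). Gene identifiers matched GENCODE M21 for 98.83%, 98.91% and 98.84% in culture, experiment 1 and experiment 2.

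limma 3.58.1 (R 4.3.3, trend) was run on log2(value + 1) for genes with a table mean of at least 10, with Benjamini-Hochberg adjustment over all of them; a gene was called at an adjusted p under 0.05. The 3 groups of experiment 2 were fitted together. Fold changes on this scale understate changes of low genes. Alternatives were a pseudocount of 5, no filter, quantile scaling, edgeR 4.0.16 and DESeq2 1.42.0 on recovered reads, a fit of only the 2 groups compared, a replicate block and each library left out. Scripts were tested on simulated data.

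The 9 members and the 17 gene lists were chosen with earlier results of these data known. Named genes were the members, up to 3 called genes per list and comparison with the smallest p, genes within 50 kb of a member, and the 2 genes most like each member by r. Close relatives of members and some marker genes that did not pass were also named, as a description. The αβ and γδ T cell, NK, myeloid and B cell lists served as markers of other cells and of identity. Some results for single list genes are not reported here.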

Additional observations from a re-analysis of the deposited data

Results flagged for a closer look

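In 9 gene groups of 5 untreated libraries of experiment 2, 1 held a library far from the others. Chance passes the cut-off used for such a gap in about 1 of 20 groups. St7 in untreated replicate 6 was at 183, and the other 4 untreated libraries were at 114 to 124. The gap to its nearest neighbour was 0.851 of the group's whole range.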

How the results depend on the processing

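Of 567 alternative values of the members' log2 differences, 543 stayed the same, 18 turned sign, 4 newly passed and 2 no longer passed. The cause was not tested. In the spleen the same means the same sign and side of the threshold. The 543 include all 108 of culture, which have no threshold and kept their sign with a change smaller than the SD between libraries. Culture chose the genes, so its 108 values give no support. The number of called genes moved more. In culture, 267 became 448 with a replicate block and 103 to 664 with 1 library left out, 664 without co-culture replicate 3, with a change of over 1.5 times for each library except co-culture replicate 1. In experiment 1, 0 became 2 without the filter, 31 with DESeq2 and 0 to 1097 with 1 library left out (1097 without depleted replicate 1), and called members 0 to 2. Between depleted and untreated mice of experiment 2, 40 became 26 with quantile scaling, 137 with DESeq2, 5 with only the 2 groups, 150 with a replicate block, and 0 to 580 with 1 library left out (0 without depleted replicate 4, 580 without depleted replicate 5, and a change of over 1.5 times for each except untreated replicate 8). Between depleted and toxin control mice, 1212 became 725 without the filter, 451 with only the 2 groups and 39 to 2716 with 1 library left out (39 without depleted replicate 4, 2716 without depleted replicate 5, and a change of over 1.5 times for each except toxin control replicate 1), and called members 0 to 2. Between toxin control and untreated mice, 2089 became 196 to 2994 with 1 library left out (196 without toxin control replicate 2, and a change of over 1.5 times also without toxin control replicate 3 or untreated replicate 5, 6 or 7), and called members became 1 with only the 2 groups.

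With 1 library left out, log2 differences that turned sign ranged as follows. In experiment 1 they were -0.22 to 0.15 for Gadd45g and -0.43 to 0.12 for Serpinb6b. Between depleted and untreated mice of experiment 2 they were -0.19 to 0.0044 for Pkib, -0.074 to 0.16 for Rab35, -0.079 to 0.43 for Klhdc2 and -1.16 to 0.22 for B3gnt7, and Serpinb6b was -0.0096 with a replicate block. Between depleted and toxin control mice they were -0.24 to 0.19 for Ryr2, -0.19 to 0.037 for Rab35 and -1.10 to 0.28 for B3gnt7. Between toxin control and untreated mice they were -0.017 to 0.38 for Gadd45g, -0.027 to 0.091 for Pkib and -0.25 to 0.17 for B3gnt7. None of these differences passed in the fits reported.

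Whether replicate numbers pair the libraries could not be settled with 3 numbers in culture, 3 in experiment 1 and 2 in experiment 2. The fits reported took the libraries as unpaired. The deviations of same-numbered libraries correlated at 0.20, -0.037 and 0.23 in culture, -0.022, -0.037 and 0.046 in experiment 1, and -0.070 and -0.105 in experiment 2. In culture 2 of 3 numbers, and in experiment 1 0 of 3, correlated best with their own. Beyond the counts above the block changed no call of a member. Low genes limit precision: with 27 reads a library, as for B3gnt7 alone, counting error is 19.2%.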
